A study of Mus musculus with 9 samples.

Results

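The 10 genes described here, Clock, Per2, Per3, Cry1, Cry2, Ciart, Nr1d1, Nr1d2, Dbp and Tef, belong to the circadian clock of mouse cells and were taken from the table by a list of their symbols, a list drawn up with earlier results of these data known. All 10 were found among the 20731 gene symbols of the count table, and all 10 passed the low-count filter that kept 14746 genes for testing. RNA was taken on day 2 from the brains of male C57BL/6J mice of 8 to 10 weeks, with 3 mice and 3 libraries in each of 3 groups. Every mouse, controls included, had cerebral venous sinus thrombosis (CVST), produced by ferric chloride on the superior sagittal sinus. The CVST group had the thrombosis only. The CVST+Ligation group also had its deep cervical lymph nodes ligated, a model of blocked outflow from the meningeal lymphatic vessels. The 4-PBA group had thrombosis, ligation and 4-phenylbutyric acid (4-PBA), an inhibitor of endoplasmic reticulum stress, at 100 mg/kg into the peritoneum. The methods give the 4-PBA dose 30 min before modelling, whereas the text deposited with the data places it after the ligation. No sham-operated mice are analysed here, so no value below compares thrombosis with its absence. The mice lived under a fixed light and dark cycle, but the clock time at which each brain was collected is not given in the sources used here, and neither is any matching of that time between groups.

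The circadian clock of mammals is a feedback loop of transcription. CLOCK or its relative NPAS2 pairs with BMAL1 (the product of Arntl) and binds E-boxes, short DNA elements at the Per and Cry genes, at Ciart, at Nr1d1 and Nr1d2 and at the output genes Dbp and Tef. PER and CRY proteins then repress the pair, and the nuclear receptors NR1D1 and NR1D2 (REV-ERB alpha and beta) repress Arntl, so that transcript levels of most of these genes rise and fall once a day in nearly every tissue. The suprachiasmatic nucleus of the hypothalamus sets the phase of the other tissues, and in the brain Per1 and Per2 also respond to light, to neuronal activity and to glucocorticoids.

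Of the 10 clock genes, Nr1d1 alone differed between the groups at an unadjusted p below 0.05. Its mean level was 120.0 CPM in the CVST group, 92.9 in the CVST+Ligation group and 71.6 in the 4-PBA group. CPM are counts as a share of a library's total, scaled by the TMM method and multiplied by 1e6, and groups were compared with edgeR's quasi-likelihood test on the whole count table. In CVST+Ligation against CVST, 1 of the 10 genes had an unadjusted p below 0.05, beside 9.64% of all genes tested. In 4-PBA against CVST+Ligation it was again 1 of 10, beside 3.23% of all genes, and in 4-PBA against CVST 1 of 10, beside 15.4%. Each time the gene was Nr1d1 and it was lower, whereas 4.18%, 1.42% and 7.33% of all genes were called lower in the same comparisons. A count of 1 in 10 is therefore near the background of the whole table or below it in both comparisons with CVST. After Benjamini-Hochberg adjustment over the 14746 genes, edgeR called 0 of the 10 in each comparison, beside 3 genes (0.0203%), 0 genes (0%) and 18 genes (0.122%) of the whole table. DESeq2 called Nr1d1 in 4-PBA against CVST (adjusted p = 0.00314), where it called 855 genes of the whole table. It called none of the 10 in the other comparisons, beside 264 genes in CVST+Ligation against CVST and 22 in 4-PBA against CVST+Ligation. Each group enters 2 of the 3 comparisons, so their values are not independent of each other.

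**Figure D1:**
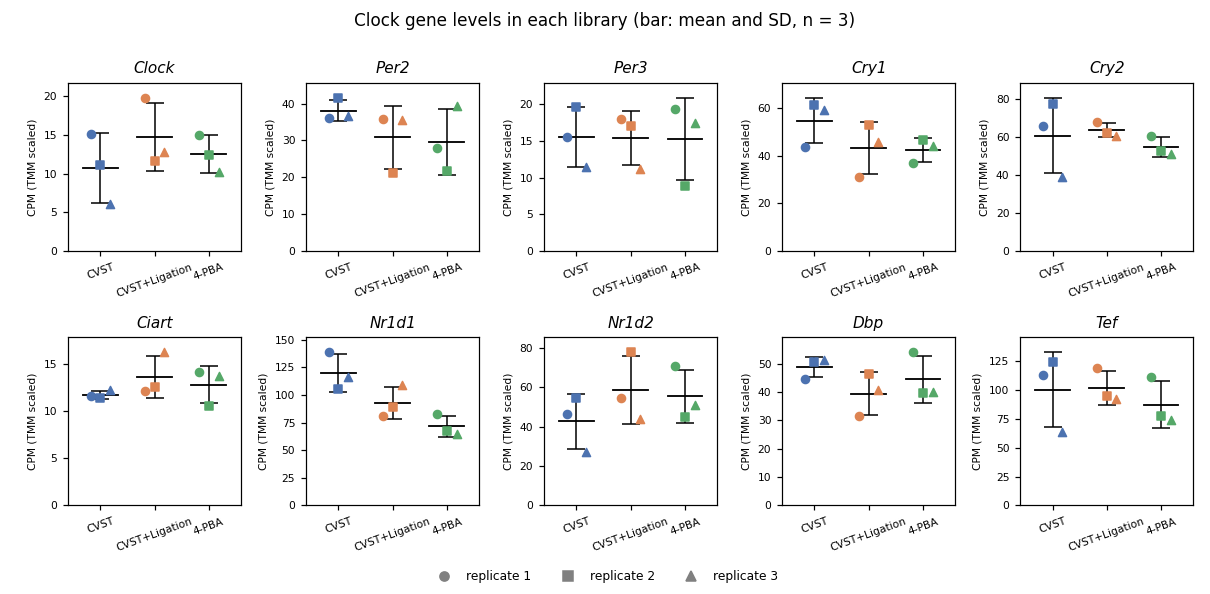
Level of each clock gene in each library, in TMM-scaled CPM on a linear axis from 0, with the 3 groups on the horizontal axis, marker shapes for the replicate numbers and black bars for the mean and SD of 3 libraries. Nr1d1 is the panel in which all 4-PBA points (64.9 to 82.4 CPM) lie below all CVST points (105 to 138 CPM).

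The libraries held 18100739 to 25091498 counts, so that 3 counts, the floor used here for detection, correspond to 0.114 to 0.163 CPM. All 10 genes were far above it, and the lowest count was 111, for Clock in library 3 of the CVST group. The floor covers counting error only, whereas the 95% intervals of log2 fold changes given below come from edgeR and include the spread between libraries. Library CVST 3 departed from the others with gene length, by 0.22 on the log2 scale for the shortest 20% of genes and by -0.21 for the longest 20%. Library CVST+Ligation 2 had a summed level of 916 CPM over 7 cerebellar markers, a sum that was at most 243 in the other libraries. Genes that mark brain regions also differed between the groups. The sum over 7 markers of midbrain dopamine neurons was 18.02 to 19.5 CPM in CVST, 169 to 206 in CVST+Ligation and 226 to 229 in 4-PBA. Over 8 markers of the striatum it was 1029 to 1855, 214 to 512 and 246 to 1254 CPM, and over 7 markers of cortical layers 1930 to 2414, 555 to 1774 and 665 to 975 CPM. Over 7 thalamic markers it was 62.6 to 68.2, 149 to 440 and 314 to 600 CPM, and over 7 hypothalamic markers 5.10 to 41.9, 5.15 to 56.5 and 267 to 579 CPM. The tissue is labelled as brain, and the text deposited with the data calls it cortical. In such bulk RNA, fewer cells of a type and less RNA per cell cannot be told apart, and the regions that were in each piece of tissue cannot be told apart from the treatment.

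Markers of the suprachiasmatic nucleus, most of which other regions also express, were mixed. Their summed level over 8 genes was 34.0 to 47.9 CPM in CVST, 42.1 to 44.5 in CVST+Ligation and 41.0 to 89.3 in 4-PBA. Of the 8, 5 passed the low-count filter, and Six6, a transcription factor of its development, was at 0 counts in the CVST and CVST+Ligation libraries and at 2, 15 and 3 counts in the 4-PBA libraries. Avp, a neuropeptide of this nucleus and of other hypothalamic nuclei, was at 0 to 6 counts in the CVST and CVST+Ligation libraries and at 551, 1532 and 16 in 4-PBA. Vip, a neuropeptide of the nucleus and also of cortical interneurons, was at 19.2 to 30.3 CPM in CVST, 10.2 to 17.3 in CVST+Ligation and 6.55 to 7.69 in 4-PBA. Lhx1 was at 0, 0 and 5 counts in CVST, at 35, 302 and 42 in CVST+Ligation and at 55, 33 and 86 in 4-PBA. Rgs16 ranged from 105 to 637 and Grp from 32 to 462 counts over the 9 libraries, Prok2 from 2 to 14 and Nms from 0 to 10. At an unadjusted p below 0.05, 3 of the 5 tested (Avp, Lhx1 and Rgs16) were higher and 1 (Vip) lower in 4-PBA than in CVST, beside 15.4% of all genes that passed in either direction.

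Clock (chr5:76209868-76304792 in GRCm38, minus strand) encodes the activator that pairs with BMAL1. It was at 15.1, 11.04 and 6.02 CPM in CVST libraries 1 to 3, at 19.8, 11.6 and 12.8 in CVST+Ligation and at 15.01, 12.4 and 10.2 in 4-PBA. The groups overlapped in every comparison, and Clock had the widest range of the 10 genes, with its highest library 3.28 times its lowest. The log2 fold change was 0.46 (95% interval -0.30 to 1.22, edgeR unadjusted p = 0.209) in CVST+Ligation against CVST, -0.24 (-0.99 to 0.52) in 4-PBA against CVST+Ligation and 0.22 (-0.54 to 0.98) in 4-PBA against CVST. Its lowest library, CVST 3, was also the lowest for Cry2, Nr1d2 and Tef, and without it the last of these differences was -0.08. The first ranged from 0.15 without CVST 3 to 0.78 without CVST 1.

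Among the repressors, Per2 and Per3 encode PERIOD proteins. Per2 (chr1:91415982-91459324, minus strand) was at 36.2, 41.5 and 36.6 CPM in CVST, at 35.8, 21.0 and 35.6 in CVST+Ligation and at 27.9, 21.7 and 39.2 in 4-PBA. Its CVST+Ligation libraries all lay below its CVST libraries, narrowly so for the nearest pair (35.8 and 36.2 CPM), and Per2 was the single gene of the 10 without overlap in that comparison, beside 13.8% of all genes. The log2 fold change was -0.30 ± 0.26 (SE, edgeR unadjusted p = 0.266) there, -0.06 ± 0.26 in 4-PBA against CVST+Ligation and -0.36 ± 0.26 (edgeR unadjusted p = 0.189) in 4-PBA against CVST. Library CVST+Ligation 2 was the lowest of the 9 for Per2, and without it the difference between CVST+Ligation and CVST was -0.10. In 4-PBA against CVST, leaving out library 4-PBA 3 changed the value to -0.62 with an edgeR unadjusted p of 0.0394, and leaving out 4-PBA 2 changed it to -0.18.

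Per3 (chr4:151003652-151044665, minus strand) had nearly equal means of 15.5 ± 4.08, 15.4 ± 3.70 and 15.2 ± 5.61 CPM (SD, n = 3) in CVST, CVST+Ligation and 4-PBA. Its libraries were at 15.5, 19.6 and 11.4 CPM in CVST, at 18.02, 17.0 and 11.2 in CVST+Ligation and at 19.3, 8.84 and 17.5 in 4-PBA, so the groups covered one another. The log2 fold changes were -0.01, -0.02 and -0.03, with 95% intervals of -0.74 to 0.72, -0.75 to 0.71 and -0.76 to 0.70. The intervals leave room for differences up to about that size in either direction.

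Promoter letters are shown here for Per3, Ciart, Cry1 and Tef, the members in which a clock motif was found in the 250 bases before the start site, and for Nr1d1, the gene that differed between groups and in which none was found. RefSeq promoters on GRCm38.p6 were matched for 9 of the 10 genes, all but Per2. Capitals mark the D-box TTATGTAA, which DBP and TEF bind, in Per3, and the E-box CACGTG in the others.
Per3, chr4:151044666-151044915, minus strand: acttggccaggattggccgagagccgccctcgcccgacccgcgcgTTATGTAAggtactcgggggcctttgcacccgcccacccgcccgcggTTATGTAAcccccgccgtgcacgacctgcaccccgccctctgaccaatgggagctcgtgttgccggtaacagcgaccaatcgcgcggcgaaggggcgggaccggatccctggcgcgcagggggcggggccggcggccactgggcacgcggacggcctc
Ciart, chr3:95882229-95882478, minus strand: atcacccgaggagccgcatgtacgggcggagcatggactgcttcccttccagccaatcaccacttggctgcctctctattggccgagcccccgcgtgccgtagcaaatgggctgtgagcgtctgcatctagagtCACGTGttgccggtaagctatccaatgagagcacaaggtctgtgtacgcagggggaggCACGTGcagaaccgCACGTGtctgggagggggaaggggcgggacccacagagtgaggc
Cry1, chr10:85185055-85185304, minus strand: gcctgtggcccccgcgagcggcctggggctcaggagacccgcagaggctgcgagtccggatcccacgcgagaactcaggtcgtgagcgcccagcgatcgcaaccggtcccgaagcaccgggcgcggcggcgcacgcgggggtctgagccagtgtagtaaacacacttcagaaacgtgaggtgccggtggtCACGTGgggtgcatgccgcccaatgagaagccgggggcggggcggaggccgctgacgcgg
Tef, the upstream one of 2 start sites, chr15:81802423-81802672, plus strand: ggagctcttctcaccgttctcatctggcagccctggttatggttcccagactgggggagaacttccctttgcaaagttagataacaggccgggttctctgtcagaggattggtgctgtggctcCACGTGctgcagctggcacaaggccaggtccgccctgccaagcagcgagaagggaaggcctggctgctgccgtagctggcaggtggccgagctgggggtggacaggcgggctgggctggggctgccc
Nr1d1, chr11:98775378-98775627, minus strand: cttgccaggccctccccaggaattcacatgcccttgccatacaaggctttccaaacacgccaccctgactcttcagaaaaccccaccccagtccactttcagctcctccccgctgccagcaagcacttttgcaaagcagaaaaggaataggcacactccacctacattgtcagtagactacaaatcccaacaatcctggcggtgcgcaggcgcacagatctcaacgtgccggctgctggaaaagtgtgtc
The E-box occurred in 3 of the 9 genes, 1 time in Cry1, 1 time at each of the 2 start sites of Tef and 3 times in Ciart, 116, 58 and 44 bases before its start, and it is in 6.02% of 32851 promoters of the same length. The D-box TTATGTAA occurred in Per3 only, 205 and 158 bases before its start, and is in 0.819% of promoters. The variant D-box TTATGCAA (0.694% of promoters) and the cyclic AMP response element TGACGTCA (1.55%) were in none of the 9. Neither was the RORE, the element that NR1D1 and NR1D2 bind, searched as AGGTCA directly after AANT (0.177%). All motifs were searched on both strands, no match overlapped another, and a match or its absence in this window describes the letters only.

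Cry1 and Cry2 encode the CRYPTOCHROME repressors. Cry1 (chr10:85131700-85185064, minus strand) was at 43.8, 61.2 and 59.3 CPM in CVST, at 31.2, 52.8 and 45.8 in CVST+Ligation and at 37.0, 46.5 and 44.1 in 4-PBA. CVST 2 and CVST 3 were the highest of the 9 libraries, but CVST 1 lay within the range of both other groups. Log2 fold changes were -0.34 ± 0.21 (SE, edgeR unadjusted p = 0.143) in CVST+Ligation against CVST and -0.36 ± 0.21 (edgeR unadjusted p = 0.12) in 4-PBA against CVST, and -0.02 (95% interval -0.50 to 0.46) between the 2 ligated groups. Without library CVST+Ligation 2, the first of these became -0.51 with an edgeR unadjusted p of 0.0446, and without CVST+Ligation 1 it became -0.16. Cry2 (chr2:92403646-92434043, minus strand) was at 66.0, 77.5 and 39.0 CPM in CVST, at 67.8, 62.4 and 60.7 in CVST+Ligation and at 60.8, 52.8 and 50.9 in 4-PBA. Library CVST 3 was its lowest and library CVST 2 its highest, so that all values of the ligated groups fell inside the range of the CVST group. Its log2 fold change was 0.06 (95% interval -0.43 to 0.56) in CVST+Ligation against CVST and -0.15 (-0.65 to 0.34) in 4-PBA against CVST. The latter became -0.41, with an edgeR unadjusted p of 0.0131, when library CVST 3 was left out, and 0.0499 when CVST 2 was.

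Ciart (chr3:95878503-95882251, minus strand) encodes a further repressor of the CLOCK and BMAL1 pair. It had the narrowest range of the 10 genes, with its highest library 1.54 times its lowest. Its levels were 11.6, 11.3 and 12.2 CPM in CVST, 12.1, 12.5 and 16.2 in CVST+Ligation and 14.1, 10.5 and 13.6 in 4-PBA. The groups overlapped, and its log2 fold changes of 0.22, -0.09 and 0.13 had 95% intervals that included 0 in each comparison. The first became 0.070 without library CVST+Ligation 3, the highest of the 9.

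Nr1d1 (chr11:98767932-98775333, minus strand) encodes the nuclear receptor REV-ERB alpha, a repressor of Arntl, Npas2 and Nfil3. It was at 138, 105 and 116 CPM in CVST, at 80.8, 88.9 and 109 in CVST+Ligation and at 82.4, 67.4 and 64.9 in 4-PBA. All 4-PBA libraries lay below all CVST libraries, while the CVST+Ligation libraries overlapped both other groups. Nr1d1 was the single gene of the 10 without overlap between 4-PBA and CVST, where 23.7% of all genes did not overlap. None of the 10 was without overlap between 4-PBA and CVST+Ligation, beside 7.73% of all genes. Group means were 120.0 ± 17.0, 92.9 ± 14.6 and 71.6 ± 9.43 CPM (SD, n = 3). The log2 fold change in 4-PBA against CVST was -0.75 ± 0.16 (SE, 95% interval -1.12 to -0.38), a fold of 0.596, with an unadjusted p of 0.00124 and an edgeR adjusted p of 0.083. The step from CVST to CVST+Ligation was -0.37 ± 0.16 with an unadjusted p of 0.0497 and an edgeR adjusted p of 0.516. The step from CVST+Ligation to 4-PBA was -0.38 ± 0.16 with an unadjusted p of 0.0458 and an edgeR adjusted p of 0.9998.

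The difference of Nr1d1 between 4-PBA and CVST had an unadjusted p below 0.05 in all 16 alternative analyses, with log2 fold changes between -0.84 and -0.62. Its adjusted p over these alternatives, which include edgeR, DESeq2 and limma, ranged from 0.00314 to 0.269. It was below 0.05 in 2 of them, DESeq2 and the fit without libraries CVST 3 and CVST+Ligation 2, the latter chosen after seeing the data. In this comparison DESeq2 called 855 genes of the whole table and that fit 983. The smaller steps were less steady, since CVST+Ligation against CVST passed the unadjusted threshold in 5 of 16 alternatives and 4-PBA against CVST+Ligation in 8 of 16. Without library CVST 1, the highest of the 9, the step to CVST+Ligation was -0.26, and without library CVST+Ligation 3 the step to 4-PBA was -0.25. Nr1d1 shares 263 of its 3077 exon bases with Thra on the opposite strand, a gene with 10089 to 22889 counts in these libraries, against 1520 to 3259 for Nr1d1. The methods name an orientation mode for the alignment, but the strand handling of the counting is not stated, so the gene to which reads from the shared bases were given is uncertain. Of 5 neuronal markers, 2 (Rbfox3 and Snap25) were lower at an unadjusted p below 0.05 in all 3 comparisons, beside 4.18%, 1.42% and 7.33% of all genes, while Syt1, Tubb3 and Map2 passed in none, and in 4-PBA against CVST had folds of 0.651, 1.23 and 1.27. The sum over the 5 was 3257 to 4280 CPM in CVST, 3261 to 3736 in CVST+Ligation and 2629 to 3150 in 4-PBA. The part of neuronal content in the difference of Nr1d1 was not tested.

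Its relative Nr1d2 (chr14:18204054-18239127, minus strand), which encodes REV-ERB beta, did not show that pattern. Nr1d2 was at 46.3, 54.5 and 27.1 CPM in CVST, at 54.6, 77.6 and 44.0 in CVST+Ligation and at 70.5, 44.6 and 50.9 in 4-PBA. The groups overlapped, and the lowest of the 9 values was in library CVST 3. The log2 fold change was 0.46 (95% interval -0.20 to 1.12, edgeR unadjusted p = 0.153) in CVST+Ligation against CVST and 0.37 (-0.29 to 1.04, edgeR unadjusted p = 0.235) in 4-PBA against CVST. Without libraries CVST 3 and CVST+Ligation 2 the former turned to -0.053, and without CVST 3 alone the values were 0.20 and 0.12. In the latter comparison its interval and that of Nr1d1, -1.12 to -0.38, did not overlap, and the difference between these genes was not itself tested.

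Dbp and Tef encode transcription factors of the PAR bZIP family, which carry the rhythm to D-box genes. Dbp (chr7:45705088-45710203, plus strand) was at 44.6, 50.4 and 51.2 CPM in CVST, at 31.4, 46.3 and 40.6 in CVST+Ligation and at 54.0, 39.6 and 39.9 in 4-PBA. Library 4-PBA 1 was the highest of the 9 and library CVST+Ligation 1 the lowest. The log2 fold change was -0.31 ± 0.18 (SE, edgeR unadjusted p = 0.127) in CVST+Ligation against CVST, 0.17 ± 0.18 (edgeR unadjusted p = 0.366) in 4-PBA against CVST+Ligation and -0.13 ± 0.18 (edgeR unadjusted p = 0.487) in 4-PBA against CVST. Without library CVST+Ligation 2, the first of these became -0.44 with an edgeR unadjusted p of 0.0437, and without CVST+Ligation 1 it became -0.17. With 1 library left out, the second ranged from 0.031 to 0.32 and the last from -0.28 to -0.055. Dbp shares 539 of its 2993 exon bases with Sphk2 on the opposite strand, which had 473 to 637 counts in these libraries, against 761 to 1137 for Dbp.

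Tef (chr15:81802421-81826863, plus strand) was at 113, 125 and 63.9 CPM in CVST, at 119, 95.4 and 92.1 in CVST+Ligation and at 111, 77.3 and 74.2 in 4-PBA. As for Cry2, the CVST group alone spanned the range of the others, with library CVST 2 the highest and library CVST 3 the lowest of the 9. Its log2 fold change was 0.02 (95% interval -0.55 to 0.60) in CVST+Ligation against CVST and -0.20 (-0.77 to 0.37) in 4-PBA against CVST. The latter became -0.46, with an edgeR unadjusted p of 0.0449, without library CVST 3, and -0.03 without CVST 2.

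**Figure D2:**
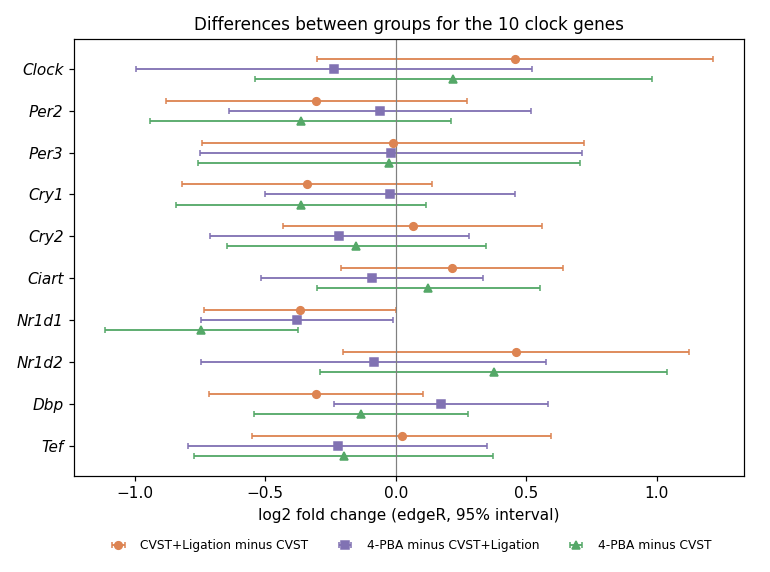
Log2 fold change of each clock gene in the 3 comparisons, as points with 95% intervals from edgeR, on a horizontal axis in log2 units with a vertical line at 0. The interval of Nr1d1 for 4-PBA against CVST, -1.12 to -0.38, lies away from 0, its intervals for the other comparisons end close to 0, and the intervals of the other 9 genes include 0.

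Over the 10 genes, the median log2 fold change was 0.01 in CVST+Ligation against CVST, -0.09 in 4-PBA against CVST+Ligation and -0.14 in 4-PBA against CVST, with medians over all genes tested of 0.00, -0.02 and -0.01. In these comparisons 5, 9 and 7 of the 10 values were below 0. Library CVST 2 was the highest of the 9 libraries for 5 of the genes (Per2, Per3, Cry1, Cry2 and Tef), and library CVST 3 the lowest for 4 (Cry2, Nr1d2, Tef and Clock). In the latter, the library that departed with gene length, Clock lay 0.997 and Nr1d2 0.89 below its mean on the log2 scale, while Cry1, Nr1d1, Dbp and Per2 were above their means.

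**Figure D3:**
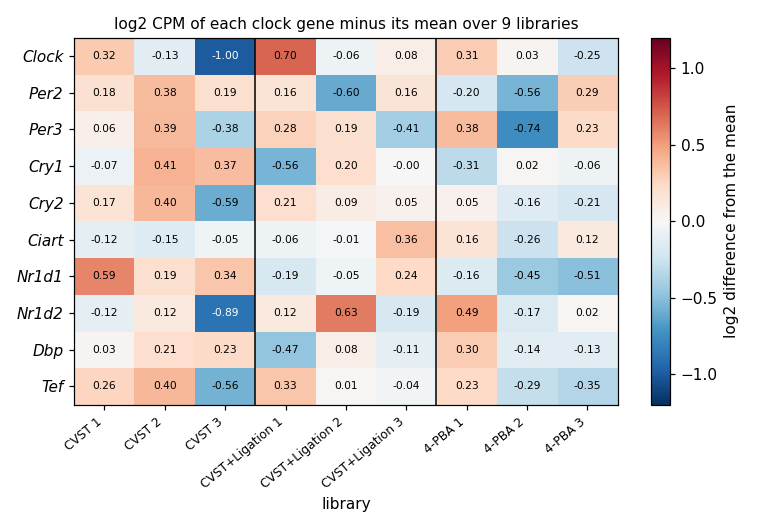
Log2 CPM of each clock gene (vertical axis) in each library (horizontal axis) minus its mean over the 9 libraries, in log2 units, in red above and blue below the mean. The darkest blue cells are Clock (-0.997) and Nr1d2 (-0.89) in library CVST 3, and Nr1d1 is above its mean in the CVST libraries and below it in the 4-PBA libraries.

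Clock outputs and their regulators were compared across single mice by the correlation of log2 CPM with Dbp over the 9 libraries, with two-sided exact permutation tests and adjustment over 4 pairs. Pearson's r was 0.351 with Arntl (exact permutation p = 0.34, adjusted 0.681), and Spearman's rho was 0.533 (exact permutation p = 0.148, adjusted 0.355). With Nr1d1, r was 0.385 (exact permutation p = 0.308, adjusted 0.681) and rho was 0.5 (exact permutation p = 0.178, adjusted 0.355). With Per3, r was 0.144 (exact permutation p = 0.709, adjusted 0.928) and rho 0.317 (exact permutation p = 0.41, adjusted 0.521). With Ciart, r was 0.0345 (exact permutation p = 0.928, adjusted 0.928) and rho 0.25 (exact permutation p = 0.521, adjusted 0.521). None of these 4 relations with Dbp passed the threshold. Without the libraries farthest from the median of Dbp, CVST+Ligation 1 and 4-PBA 1, r was 0.794 with Arntl, 0.586 with Nr1d1, 0.37 with Per3 and -0.328 with Ciart. On deviations from the group means it was 0.228, 0.407, 0.177 and 0.419. Among all 45 pairs of the 10 genes, given without p, r over the 9 libraries was above 0.5 in 10 and below -0.5 in 2. It was highest for Cry2 with Tef (0.943) and lowest for Cry1 with Clock (-0.798).

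Levels of different genes were compared per length, on the deposited FPKM (fragments per kilobase and 1e6 counts of the library). The length behind an FPKM value was the longest coding length of the gene for 7 of the 10, so that untranslated parts of the transcript, which also yield reads, are not in the divisor. On this scale Tef was the highest with a median over the 9 libraries of 97.7 FPKM (range 60.3 to 124), followed by Nr1d1 at 49.6 (36.8 to 73.1), Dbp at 44.6 (32.3 to 56.4), Cry2 at 34.9 (20.8 to 43.6), Nr1d2 at 30.8 (14.9 to 46.3) and Cry1 at 25.4 (17.2 to 33.6). Ciart followed at 10.6 FPKM (9.31 to 13.9), Per2 at 9.22 (5.74 to 10.995), Per3 at 5.01 (2.54 to 5.64) and Clock at 4.85 (2.23 to 7.71). Neighbours in this order overlapped in their ranges except Cry1 with Ciart and Per2 with Per3. The order depended on the length used. Divided by all exon bases of the gene in place of the deposited length, a choice made after seeing the data, the median was 12.5 for Tef (7867 bases), 29.8 for Nr1d1 (3077 bases), 14.5 for Dbp (2993 bases) and 13.8 for Cry1 (3340 bases), so that Nr1d1 came first and Tef at rank 4. Per3 (1.82) and Clock (0.907) were the lowest with either length.

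**Figure D4:**
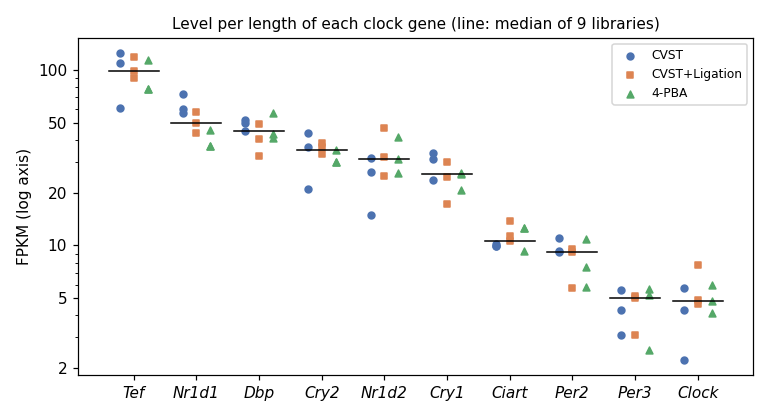
FPKM of each clock gene in each of the 9 libraries on a log axis, with genes ordered by their median (black line) on the horizontal axis and colours and shapes for the groups. Tef, Nr1d1 and Dbp lead the order with medians of 97.7, 49.6 and 44.6 FPKM, and Per3 and Clock close it with 5.01 and 4.85, whereas with all exon bases as the length Nr1d1 leads and Tef is at rank 4.

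The rest of the clock was followed with 20 further genes, all of which were tested. In CVST+Ligation against CVST, 2 of the 20 were lower (Per1 and Npas2) and 0 higher at an unadjusted p below 0.05, beside 4.18% of all genes called lower and 5.47% called higher. In 4-PBA against CVST+Ligation, 0 of the 20 passed, beside 3.23% of all genes, and in 4-PBA against CVST, 4 were lower (Per1, Npas2, Bhlhe40 and Arntl), beside 7.33%, and 0 higher. The adjusted p of edgeR was below 0.05 for 0 of the 20 in each comparison. The median log2 fold changes of these genes were -0.18, -0.10 and -0.19.

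Per1, the PERIOD gene with a quick response to light and glucocorticoids, was at 113, 101 and 111 CPM in CVST, at 65.9, 76.1 and 74.6 in CVST+Ligation and at 74.7, 62.5 and 67.7 in 4-PBA. All ligated mice, treated with 4-PBA or not, lay below all mice of the CVST group. Of the 20 genes, 2 were without overlap between CVST+Ligation and CVST, beside 13.8% of all genes. Between 4-PBA and CVST it was 4 of the 20, beside 23.7%. The log2 fold change was -0.58 ± 0.12 (SE, unadjusted p = 0.000815, edgeR adjusted p = 0.25) in CVST+Ligation and -0.66 ± 0.12 (unadjusted p = 0.000323, edgeR adjusted p = 0.0545) in 4-PBA, each against CVST, and -0.08 (95% interval -0.35 to 0.19) between the ligated groups. The unadjusted p of Per1 stayed below 0.05 in all 16 alternatives for both comparisons with CVST. Its adjusted p over these alternatives with edgeR, DESeq2 and limma ranged from 0.00117 to 0.566 in CVST+Ligation and from 3.948e-05 to 0.196 in 4-PBA. It was below 0.05 in 1 of them (DESeq2) in CVST+Ligation. In 4-PBA it was so in 2, DESeq2 and the fit without libraries CVST 3 and CVST+Ligation 2. Its relative Per2 had a log2 fold change of -0.30 in CVST+Ligation, with an interval of -0.88 to 0.27 that holds the value of Per1.

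Per1 belongs to the genes that neuronal activity and stress hormones induce, and both kinds of gene were listed. Of 12 immediate early genes, which neuronal activity switches on within minutes, 9 were lower in CVST+Ligation than in CVST at an unadjusted p below 0.05 and none was higher, beside 4.18% and 5.47% of all genes. Their summed level was 1862, 676 and 1902 CPM in CVST libraries 1 to 3, 384 to 587 in CVST+Ligation and 302 to 465 in 4-PBA. Library CVST 2 was thus far below the other CVST libraries in this sum, and above all libraries of the ligated groups. Per1 was at 113, 101 and 111 CPM in CVST libraries 1 to 3, so library CVST 2 was the lowest of its group there too. Of 12 glucocorticoid-responsive genes, a list that includes Per1, 2 were lower in that comparison (Per1 and Sgk1), beside the same 4.18%, and 10 did not pass. Their sums overlapped between the groups, at 617 to 780, 500.2 to 660 and 538 to 888 CPM. The part of neuronal activity, hormones or tissue makeup in the level of Per1 was not tested.

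In the activating arm, Arntl (BMAL1) was at 51.7, 79.9 and 51.8 CPM in CVST, at 50.3, 52.4 and 44.3 in CVST+Ligation and at 44.9, 44.1 and 38.2 in 4-PBA. The 4-PBA libraries lay below the CVST libraries (44.9 against 51.7 CPM for the nearest pair), with a log2 fold change of -0.53 ± 0.19 (SE, unadjusted p = 0.018, edgeR adjusted p = 0.218), and CVST+Ligation against CVST gave -0.32 (95% interval -0.73 to 0.09). The former had an unadjusted p below 0.05 in 12 of 16 alternatives. Library CVST 2 was the highest for Arntl. Without it the edgeR unadjusted p was 0.0754 in 4-PBA against CVST and 0.548 in CVST+Ligation against CVST. Npas2, which can stand in for Clock in the forebrain, was at 50.8, 53.7 and 38.5 CPM in CVST, at 26.7, 13.1 and 28.8 in CVST+Ligation and at 25.3, 22.8 and 12.2 in 4-PBA. All ligated mice again lay below the CVST group, with log2 fold changes of -1.06 ± 0.34 (unadjusted p = 0.0117, edgeR adjusted p = 0.381) in CVST+Ligation and -1.25 ± 0.34 (unadjusted p = 0.00475, edgeR adjusted p = 0.133) in 4-PBA. Over the 16 alternatives with edgeR, DESeq2 and limma the adjusted p ranged from 0.101 to 0.569 in the former and from 0.0141 to 0.316 in the latter. There it was below 0.05 in 2, DESeq2 and the fit without libraries CVST 3 and CVST+Ligation 2. Every ligated mouse lay below the CVST group in the cortical sum, and every one but 4-PBA 2 in the striatal sum, and whether tissue makeup had a part in the level of Npas2 was not tested.

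Nfil3, a repressor at D-boxes that competes with DBP and TEF, was at 34.9, 22.4 and 49.1 CPM in CVST, at 21.5, 27.1 and 32.1 in CVST+Ligation and at 21.8, 24.4 and 31.7 in 4-PBA. Its groups overlapped, and its log2 fold changes against CVST were -0.40 (95% interval -1.03 to 0.24) and -0.45 (-1.08 to 0.19). Bhlhe40 (DEC1), a repressor at E-boxes, was at 142, 145 and 90.8 CPM in CVST, at 97.1, 67.3 and 108 in CVST+Ligation and at 69.0, 68.0 and 85.9 in 4-PBA. The CVST+Ligation libraries overlapped both other groups, with a log2 fold change of -0.47 ± 0.23 (SE, edgeR unadjusted p = 0.0642) against CVST, whereas 4-PBA against CVST gave -0.76 ± 0.23 (unadjusted p = 0.00779, edgeR adjusted p = 0.158).

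**Figure D5:**
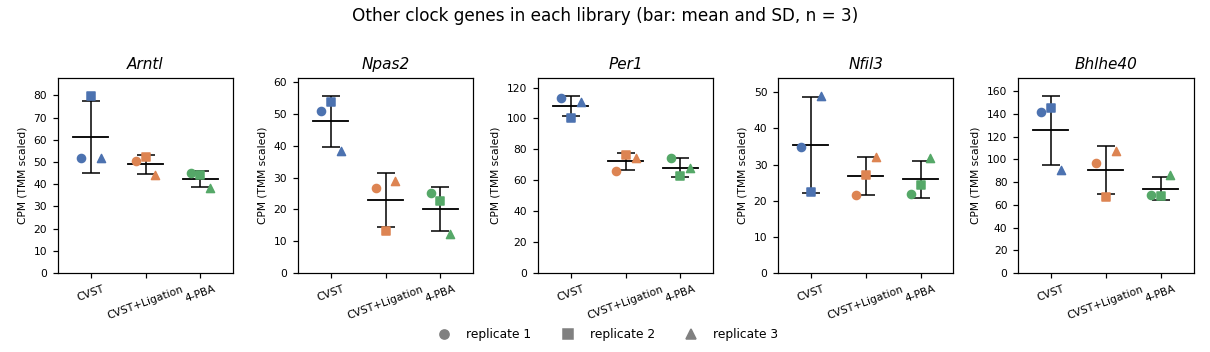
Levels of 5 clock genes outside the 10, in TMM-scaled CPM on linear axes from 0, by group on the horizontal axis, with marker shapes for replicate numbers and black bars for the mean and SD of 3 libraries. The Per1 points of both ligated groups (62.5 to 76.1 CPM) lie below those of the CVST group (101 to 113 CPM), and so do their Npas2 points (12.2 to 28.8 against 38.5 to 53.7 CPM).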

How the data were processed

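RNA was sequenced from 9 mouse brains, and groups were taken from the sample titles. The deposited counts per gene are whole numbers made by the authors, and the deposited FPKM are the same counts divided by gene length and by the library total. The deposited notes name fastp, HISAT2, StringTie and RSEM and the builds mm10 and GRCm38, and the methods give an orientation mode for HISAT2, while versions, the counting settings and any use of strand in counting are not given in the sources used here. The columns called TPM in the methods were found to hold FPKM, with library sums of 780195 to 879696, so the planned test on TPM was run on FPKM. Library totals were 19392081 to 24166917 counts in CVST, 18835705 to 24157584 in CVST+Ligation and 18100739 to 25091498 in 4-PBA. No library was a copy of another (chi-square per degree of freedom at least 24.2 within groups).

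Of 20731 genes, 3285 were at 0 in every library and 14746 passed filterByExpr. Counts were tested with edgeR 4.0.16 (TMM, quasi-likelihood, all 9 libraries, Benjamini-Hochberg adjustment) in R 4.3.3, after a test on simulated data. Alternatives used DESeq2 1.42.0, limma 3.58.1 on log2(FPKM + 1) or log2(FPKM + 0.1), other scalings and filters, 2 groups only, a replicate block and 1 library left out. Correlations used scipy 1.17.1. The gene lists and the 10 members were chosen with earlier results of these data known. Named were the 10 genes, Arntl, Npas2, Per1 and Nfil3, other clock genes with an unadjusted p below 0.05, the 5 genes most like Dbp, and up to 2 genes with the smallest p per marker list beside defining genes near 0. The other neuronal and suprachiasmatic markers were named outside this rule, after their values were seen, so that these lists are complete, and Sphk2 and Thra were named for their overlap. Whether the 3 libraries of a group are separate mice follows from the study's methods, and p-values measure the spread between these libraries. Protein sequences and the promoter of Per2 were not used here. The 20 other clock genes counted are those listed at first less 2 that are not reported here.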

Additional observations from a re-analysis of the deposited data

How the results depend on the processing

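Leaving out 1 library leaves a group of 2, whose spread edgeR pools with the others, and an exact permutation test of 3 against 3 libraries cannot give a p below 0.1. The number of the 10 clock genes with an unadjusted p below 0.05 was 1 in each comparison. In CVST+Ligation against CVST it was 0 with total counts as scaling, with all genes of at least 1 count, with the 6 libraries of the 2 groups only, with limma at either pseudocount and without both CVST 3 and CVST+Ligation 2, an alternative chosen after seeing the data. It was 0 to 2 with 1 library left out. In 4-PBA against CVST+Ligation it was 0 with total counts, with both limma fits and without both libraries, and 0 to 1 with 1 library left out. For 4-PBA against CVST it was 3 without both libraries (Cry2, Nr1d1 and Tef) and 1 to 3 with 1 left out. Over all genes, an adjusted p below 0.05 was reached by 3, 0 and 18 genes. In CVST+Ligation against CVST it was 0 with at least 10 counts in every library, 1 with 6 libraries, 264 with DESeq2, 13 with limma at a pseudocount of 0.1, 84 without both libraries and 0 to 7 with 1 left out. In 4-PBA against CVST+Ligation it was 22 with DESeq2, 2 with limma at a pseudocount of 1 and 0 to 2 with 1 left out. For 4-PBA against CVST it was 112 with all genes of at least 1 count, 6 with at least 10 counts, 229 with 6 libraries, 855 with DESeq2, 87 and 134 with limma at 1 and 0.1, 983 without both libraries and 2 to 165 with 1 left out. Genes with an unadjusted p below 0.05 numbered 1422, 476 and 2271, 2023 in 4-PBA against CVST+Ligation without both libraries, and 1200 to 1644, 243 to 1470 and 1486 to 2417 with 1 left out. Of these genes 56.7%, 56.1% and 52.4% were higher, against 65.4%, 66.1% and 65.1% with total counts, 59.9%, 72.4% and 65% with limma at 1 and 62.1%, 71% and 65.9% at 0.1. The cause of these shifts was not tested.

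Replicate numbers are shared by the groups. Deviations of same-numbered libraries from their group means had correlations of -0.05 to 0.32. Libraries of different numbers were not compared in this way, so whether a shared number stands for anything else shared is not known. With the replicate block, 1, 1 and 2 of the 10 genes passed. In CVST+Ligation against CVST the gene was then Cry1 (-0.36, edgeR unadjusted p = 0.0226) in place of Nr1d1 (edgeR unadjusted p = 0.06), and in 4-PBA against CVST Cry1 joined Nr1d1. An adjusted p below 0.05 was reached by 1 gene of the whole table in CVST+Ligation against CVST and by 1 in 4-PBA against CVST+Ligation with the block.

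Directions of Nr1d1 and Dbp held under all alternatives in each comparison. Each of the other 8 genes turned in at least 1 comparison under some alternative, including Nr1d2 in CVST+Ligation against CVST, whose value was 0.46. With total counts Per3 was 0.030, 0.013 and 0.043 in the 3 comparisons and Cry1 0.0056 in 4-PBA against CVST+Ligation. With the block Per3 was 0.0031 and Cry1 0.0017 there. With limma at pseudocounts of 1 and 0.1, Per3 was 0.028 and 0.034 in CVST+Ligation against CVST and 0.010 and 0.0031 in 4-PBA against CVST, and Cry1 was 0.032 and 0.035 between the ligated groups. Without both libraries Cry2 was -0.18, Nr1d2 -0.053 and Tef -0.19 in CVST+Ligation against CVST, Per3 0.063, Cry1 0.15 and Nr1d2 0.17 in 4-PBA against CVST+Ligation, and Clock -0.082 in 4-PBA against CVST. With 1 library left out, CVST+Ligation against CVST gave -0.21 to 0.18 for Per3, -0.19 to 0.26 for Cry2 and -0.24 to 0.19 for Tef. 4-PBA against CVST+Ligation gave -0.32 to 0.12 for Per2, -0.20 to 0.26 for Per3, -0.20 to 0.16 for Cry1, -0.28 to 0.18 for Nr1d2, -0.37 to 0.049 for Clock and -0.15 to 0.055 for Ciart. 4-PBA against CVST gave -0.22 to 0.25 for Per3, -0.41 to 0.0499 for Cry2 and -0.081 to 0.56 for Clock.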

Other observations

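The genes whose log2 CPM followed Dbp most closely over the 9 libraries, among 11260 genes with a median of at least 5 CPM, were Gpr180 (Pearson's r 0.903), Lbp (0.885), Cfap74 (0.876), Cwf19l1 (0.874) and Ints9 (0.861). These values are a description with no p, since the genes were picked by this measure. Gpr180 was at 22.8, 25.5 and 24.7 CPM in CVST, at 18.5, 26.0 and 22.2 in CVST+Ligation and at 25.4, 19.5 and 19.7 in 4-PBA, and like Dbp it was lowest in library CVST+Ligation 1. Sphk2, which overlaps Dbp on the opposite strand and was named after its value was seen, came at rank 11 with an r of 0.819.

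Markers of glia, vessels and blood were listed beside the clock genes. Over 5 oligodendrocyte markers the summed level was 2257 to 2948 CPM in CVST, 2300 to 5168 in CVST+Ligation and 3879 to 6401 in 4-PBA. In 4-PBA against CVST 4 of the 5 were higher at an unadjusted p below 0.05, beside 15.4% of all genes that passed in either direction. In CVST+Ligation against CVST 1 of the 5 was higher, beside 5.47% of all genes called higher. In 4-PBA against CVST+Ligation 0 of the 5 passed, beside 3.23%. Over 5 microglial markers the summed level was 258 to 295, 198 to 257 and 216 to 234 CPM. Sums over 5 markers each of astrocytes (1099 to 1927, 1201 to 1532 and 979 to 2236 CPM), endothelium (211 to 313, 225 to 337 and 269 to 303 CPM) and blood (154 to 186, 152 to 329 and 167 to 211 CPM) overlapped between the groups.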
